A study of Mus musculus with 2 samples.

Results

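Transcript levels of 8 crossover genes were measured in foetal mouse germ cells, namely Msh4, Msh5, Hfm1, Shoc1, Tex11, Rnf212, Ccnb1ip1 and Mlh3. The genes were taken by name, through their Ensembl identifiers, from a table of 42422 genes. All 8 were found, and all 8 passed the filter on low counts that left 15252 genes for testing. The germ cells carried an Oct4-eGFP transgene on the 129svJT2 background crossed to Swiss mice, were otherwise wild type, and were sorted by fluorescence from E12.5 gonads. XX and XY gonads were taken at once (0 h) or cultured with the mesonephros attached in the vehicle DMSO for 24 h or 72 h. XY gonads were also cultured for 24 h or 72 h with BGJ398, an inhibitor of FGF receptors (FGFRi), or PD0325901, which inhibits MEK1/2 (MEKi), both at 500 nM. Each of the 10 groups had 4 libraries, each from the pooled gonads of several embryos, and sex was assigned by the presence of testis cords. No XX gonads with inhibitor were among these 40 libraries.

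In meiotic prophase, homologous chromosomes are joined by recombination, and some of the recombination intermediates mature into crossovers that hold the homologues together until they separate. The ZMM proteins bind and protect these intermediates along the synaptonemal complex. MSH4 and MSH5 form a clamp on branched DNA, HFM1 is a DNA helicase, SHOC1 is an XPF-like protein, TEX11 is a repeat protein of meiotic chromosomes, RNF212 and CCNB1IP1 (HEI10) are RING proteins that act against each other in choosing crossover sites, and MLH3 is a subunit of a nuclease of late crossover sites. In mice, XX germ cells enter meiosis in the foetal ovary, whereas XY germ cells arrest in the foetal testis and enter meiosis only after birth.

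The 8 genes lie on chromosomes 3 (Msh4), 17 (Msh5), 5 (Hfm1 and Rnf212), 4 (Shoc1), X (Tex11), 14 (Ccnb1ip1) and 12 (Mlh3) of GRCm39. Each promoter was read from the GRCm39 genome as the 250 bases before and the first 50 bases after the start of the gene's canonical transcript in GENCODE M39. These motifs were searched on both strands, namely CACGTG (an E-box), TCCCGC (a core of E2F sites) and CNCCTCAG (reported for STRA8). CACGTG was found in 1 of the 8 promoters (Rnf212), TCCCGC in 3 (Msh5, Tex11 and Rnf212) and CNCCTCAG in 1 (Msh5). Over 21757 promoters of protein-coding genes the shares were 7.82%, 22.8% and 7.88%. The 3 promoters with a match are printed 5′ to 3′ on the strand of the gene, because they hold the matches. Capitals mark the motif matches, which are matches of letters and not measured binding sites.
Msh5, chr17:35265549-35265848, minus strand: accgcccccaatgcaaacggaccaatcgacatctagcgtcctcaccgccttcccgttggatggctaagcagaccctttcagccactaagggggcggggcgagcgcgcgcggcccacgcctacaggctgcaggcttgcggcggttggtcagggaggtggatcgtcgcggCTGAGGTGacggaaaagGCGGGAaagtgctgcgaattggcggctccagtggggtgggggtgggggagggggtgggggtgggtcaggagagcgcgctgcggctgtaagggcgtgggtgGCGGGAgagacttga
Tex11, chrX:100103224-100103523, minus strand: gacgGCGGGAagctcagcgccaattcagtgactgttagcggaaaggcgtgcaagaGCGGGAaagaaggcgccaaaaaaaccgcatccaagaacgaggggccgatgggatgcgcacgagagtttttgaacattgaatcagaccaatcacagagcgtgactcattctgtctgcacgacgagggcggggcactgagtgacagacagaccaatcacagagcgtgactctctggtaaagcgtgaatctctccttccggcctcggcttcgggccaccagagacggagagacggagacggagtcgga
Rnf212, chr5:108922799-108923098, minus strand: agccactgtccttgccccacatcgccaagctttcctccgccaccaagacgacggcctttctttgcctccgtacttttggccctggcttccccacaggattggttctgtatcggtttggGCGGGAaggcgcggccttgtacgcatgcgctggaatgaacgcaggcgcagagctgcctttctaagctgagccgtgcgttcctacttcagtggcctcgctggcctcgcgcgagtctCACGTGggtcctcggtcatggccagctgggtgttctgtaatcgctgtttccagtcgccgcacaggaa

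Total counts ran from 1178953 to 5199153 per library, with a median of 2135128.5. Levels are given as CPM, the counts of a gene over those of its library times 1000000, with library sizes scaled by TMM (the trimmed mean of M-values). There were 2 pools of 20 libraries each. The 0 h and 24 h groups were in pool 1, apart from XY 24 h FGFRi, which was in pool 2 with every 72 h group. In comparisons of 72 h with 0 h or 24 h, and of FGFRi with DMSO at 24 h, the group and the pool cannot be told apart. The summed level of 5 germ cell markers was 1776 to 5541 CPM in every library. The sum of 10 gonadal somatic cell markers was 82.1 to 131 CPM in XX 72 h DMSO and 17.0 to 105 CPM in the other groups. The sum of 3 endothelial cell markers was 30.7 to 126 CPM at 0 h and 24 h and 5.16 to 26.6 CPM at 72 h. Pecam1, which germ cells express as well, made up most of it at 0 h and 24 h (group means of 48.6 to 112 CPM), whereas Cdh5 was highest in XY 72 h DMSO (9.72 CPM against 2.41 CPM in XY 0 h) and the group means of Kdr were 1.71 CPM or less. The sum of 6 blood cell markers was 161 to 441 CPM in XY 24 h MEKi, 38.4 to 287 CPM in XY 0 h and 12.3 to 113 CPM in the other groups. The part of these markers in the results was not tested. In these bulk samples, fewer cells that express a gene and less RNA per cell cannot be told apart.

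In 16 pairs of libraries, a library of pool 1 had the same sample index as a library of pool 2. Y-linked counts were found in the 4 XX 24 h DMSO libraries, whose index partners were XY 72 h FGFRi libraries, at 3.28% to 5.42% of the partner's Y-linked counts (88 counts against 2097, or 4.2%). In the 4 XX 0 h libraries, whose partners were XX, there were 21 Y-linked counts in all. For XX 0 h and XY 0 h the partners were the 72 h DMSO libraries of the same sex, and for XY 24 h DMSO they were the libraries with MEKi for 72 h. The XY 24 h MEKi and FGFRi libraries had no partner. The comparisons were therefore repeated with 4.2% of the partner's counts taken out (an index carry-over estimate). The 4.2% was measured in the 4 XX 24 h DMSO libraries only and applied to all 16 pairs. It was not lowered for Y-linked counts like the 21 found with XX partners, so it may be too high. Where taking the estimate out moved a printed fold change of the 8 genes by over 1.5 times or changed a call, the value is given beside it.

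Before culture, none of the 8 crossover genes passed the test between XY and XX germ cells in limma, in which 3% of all genes passed in either direction. Levels are compared in limma by treat against a fold change of 1.5, and a gene is called where the Benjamini-Hochberg adjusted p over all genes (FDR) is under 0.05. Msh4 read 5.60, 3.48, 5.43 and 4.46 CPM in the XX 0 h libraries and 0, 1.56, 0.891 and 1.57 CPM in the XY 0 h libraries. For Msh5, the XX libraries had 18.2, 12, 8.92 and 10.6 CPM and the XY libraries had 4.39, 4.67, 1.78 and 3.92 CPM. Both groups were apart for 5 of 8 genes (Msh4, Msh5, Hfm1, Rnf212 and Tex11, against 21.4% of all genes), with Tex11 the higher in XY (66.0 ± 7.36 CPM against 49.8 ± 6.32 CPM, SD, n = 4). The log2 difference of XY less XX was -2.12 ± 0.51 for Msh4 (SE, FDR = 0.0588), -1.43 ± 0.38 for Msh5 (FDR = 0.262) and 0.42 ± 0.17 for Tex11 (FDR = 1). By unadjusted p under 0.05, 4 of the 8 genes differed, all lower in XY, against 8.16% of all genes in either direction. The count of calls was 2 in edgeR (Msh4 and Msh5, against 4.18% of all genes) and 0 in DESeq2.

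The XX 0 h levels of several members moved with the index carry-over estimate. For Shoc1, 33 counts were found over the 4 XX 0 h libraries and 31.0 were estimated as carried over. For Msh5 the numbers were 118 and 68.2, for Rnf212 35 and 22.1, and for Msh4 47 and 18.1. In XY 0 h, 12 counts of Rnf212 stood against an estimate of 11.8. Rnf212 was then left at 0 in 1 XX 0 h library and in 3 XY 0 h libraries, so its groups were no longer apart. With the estimate taken out, the mean of Msh5 in XX 0 h went from 12.4 to 4.95 CPM and the XY less XX log2 difference from -1.43 to -0.50. The difference of Msh4 went from -2.12 to -1.90 (FDR = 0.276) and that of Shoc1 from -0.71 to 1.40, which turned its direction (FDR = 1 for both), while Ccnb1ip1 in XX 0 h went only from 27.2 to 25.2 CPM.

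**Figure D1:**
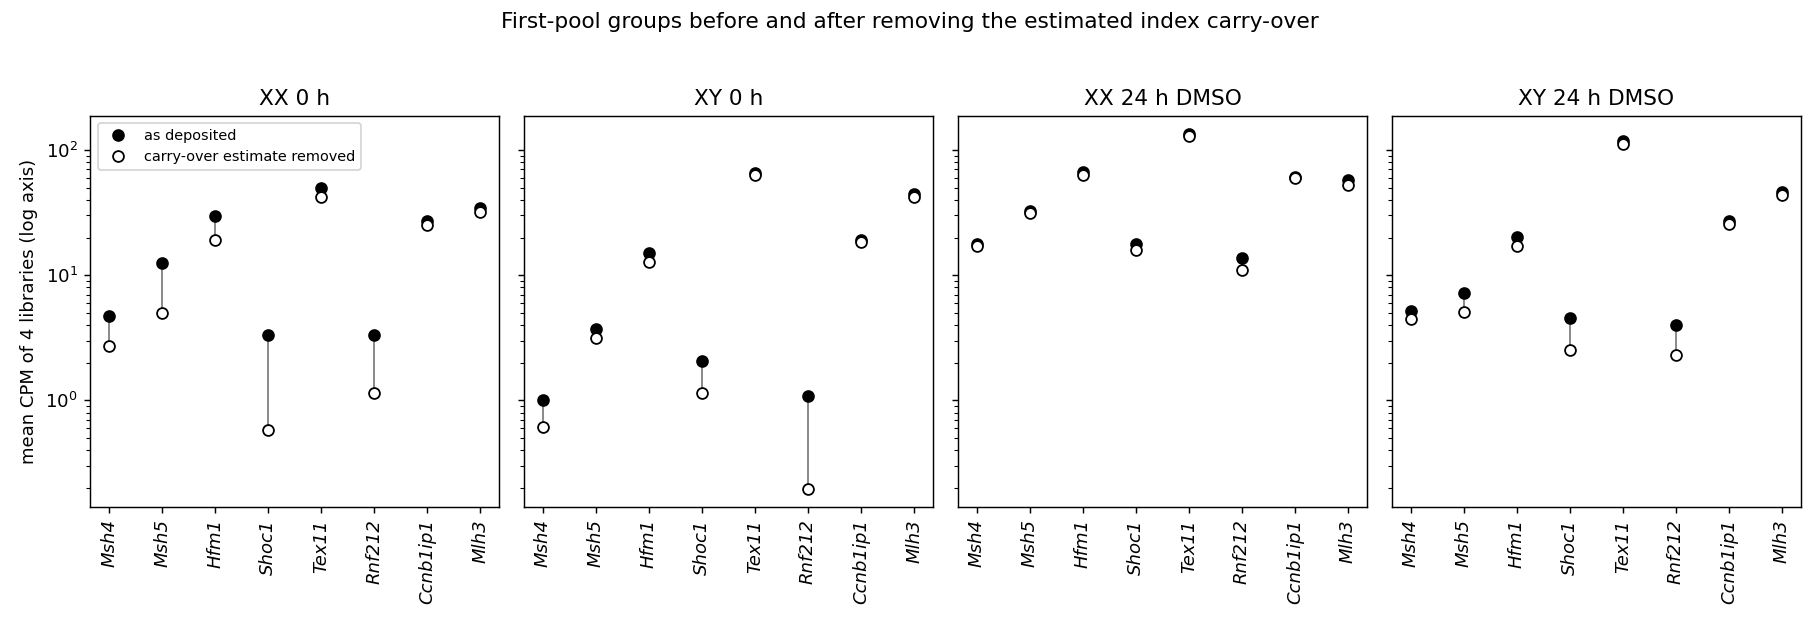
Mean CPM of the 8 genes (log axis) in the 4 groups of pool 1 that have an index partner in pool 2, as deposited (filled) and with the carry-over estimate removed (open). Shoc1 in XX 0 h drops from 3.34 to 0.580 CPM and Rnf212 in XY 0 h from 1.09 to 0.196 CPM, whereas Tex11, Ccnb1ip1 and Mlh3 stay close to their deposited means.

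During the first 24 h, 6 of the 8 crossover genes rose in XX germ cells (Msh4, Msh5, Shoc1, Tex11, Rnf212 and Ccnb1ip1), against 2.32% of all genes. The median log2 fold change of the 8 was 1.33 against 0.045 over all genes, and 2.01 with the carry-over estimate taken out, where Hfm1 passed as well. Hfm1 (FDR = 0.191) and Mlh3 (FDR = 1) did not pass as deposited. The XX 24 h libraries were above all XX 0 h libraries for 8 of 8 genes, against 15.2% of all genes. In XY germ cells, 1 of 8 (Msh4) passed, against 1.61% of all genes. By 24 h, 5 of 8 (Msh4, Msh5, Hfm1, Rnf212 and Ccnb1ip1) were lower in XY than in XX, against 5.99% of all genes, and Shoc1 was a 6th with the carry-over estimate taken out (FDR = 0.00512). The XX count falls to 2 without XX 24 h replicate 6, which was the highest of its group for every member except Mlh3 and whose index partner was the deepest library of the series. It also falls to 2 without XX 0 h replicate 5, and to 3 without XX 0 h replicate 2 or 4. Over all genes the calls in either direction fell as well, from 493 to 336 without XX 24 h replicate 6. They were 333, 432 and 318 without XX 0 h replicates 5, 2 and 4. The Msh4 call in XY is lost on leaving out any of 7 of the 8 libraries, where 263 to 455 of all genes were called against 449. The XY against XX count falls to 3 without XY 24 h replicate 5, and the calls over all genes fell from 1524 to 1185.

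Over 72 h all 8 genes rose in XX germ cells (8 of 8, against 18.8% of all genes), with a median log2 fold change of 3.68 (4.34 with the carry-over estimate taken out) against -0.012 over all genes. In XY germ cells 5 of 8 rose (Msh4, Msh5, Hfm1, Shoc1 and Rnf212, against 20.2% of all genes), while Tex11, Ccnb1ip1 and Mlh3 did not pass. From 24 h to 72 h, higher calls were made for 6 of 8 genes in XX (all but Ccnb1ip1 and Mlh3, against 10.3% of all genes) and 3 of 8 in XY (Hfm1, Shoc1 and Rnf212, against 16% of all genes). At 72 h, 7 of 8 were lower in XY than in XX (all but Mlh3, against 18.1% of all genes). The highest mean of all 10 groups was XX 72 h DMSO for each of the 8 genes.

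**Figure D2:**
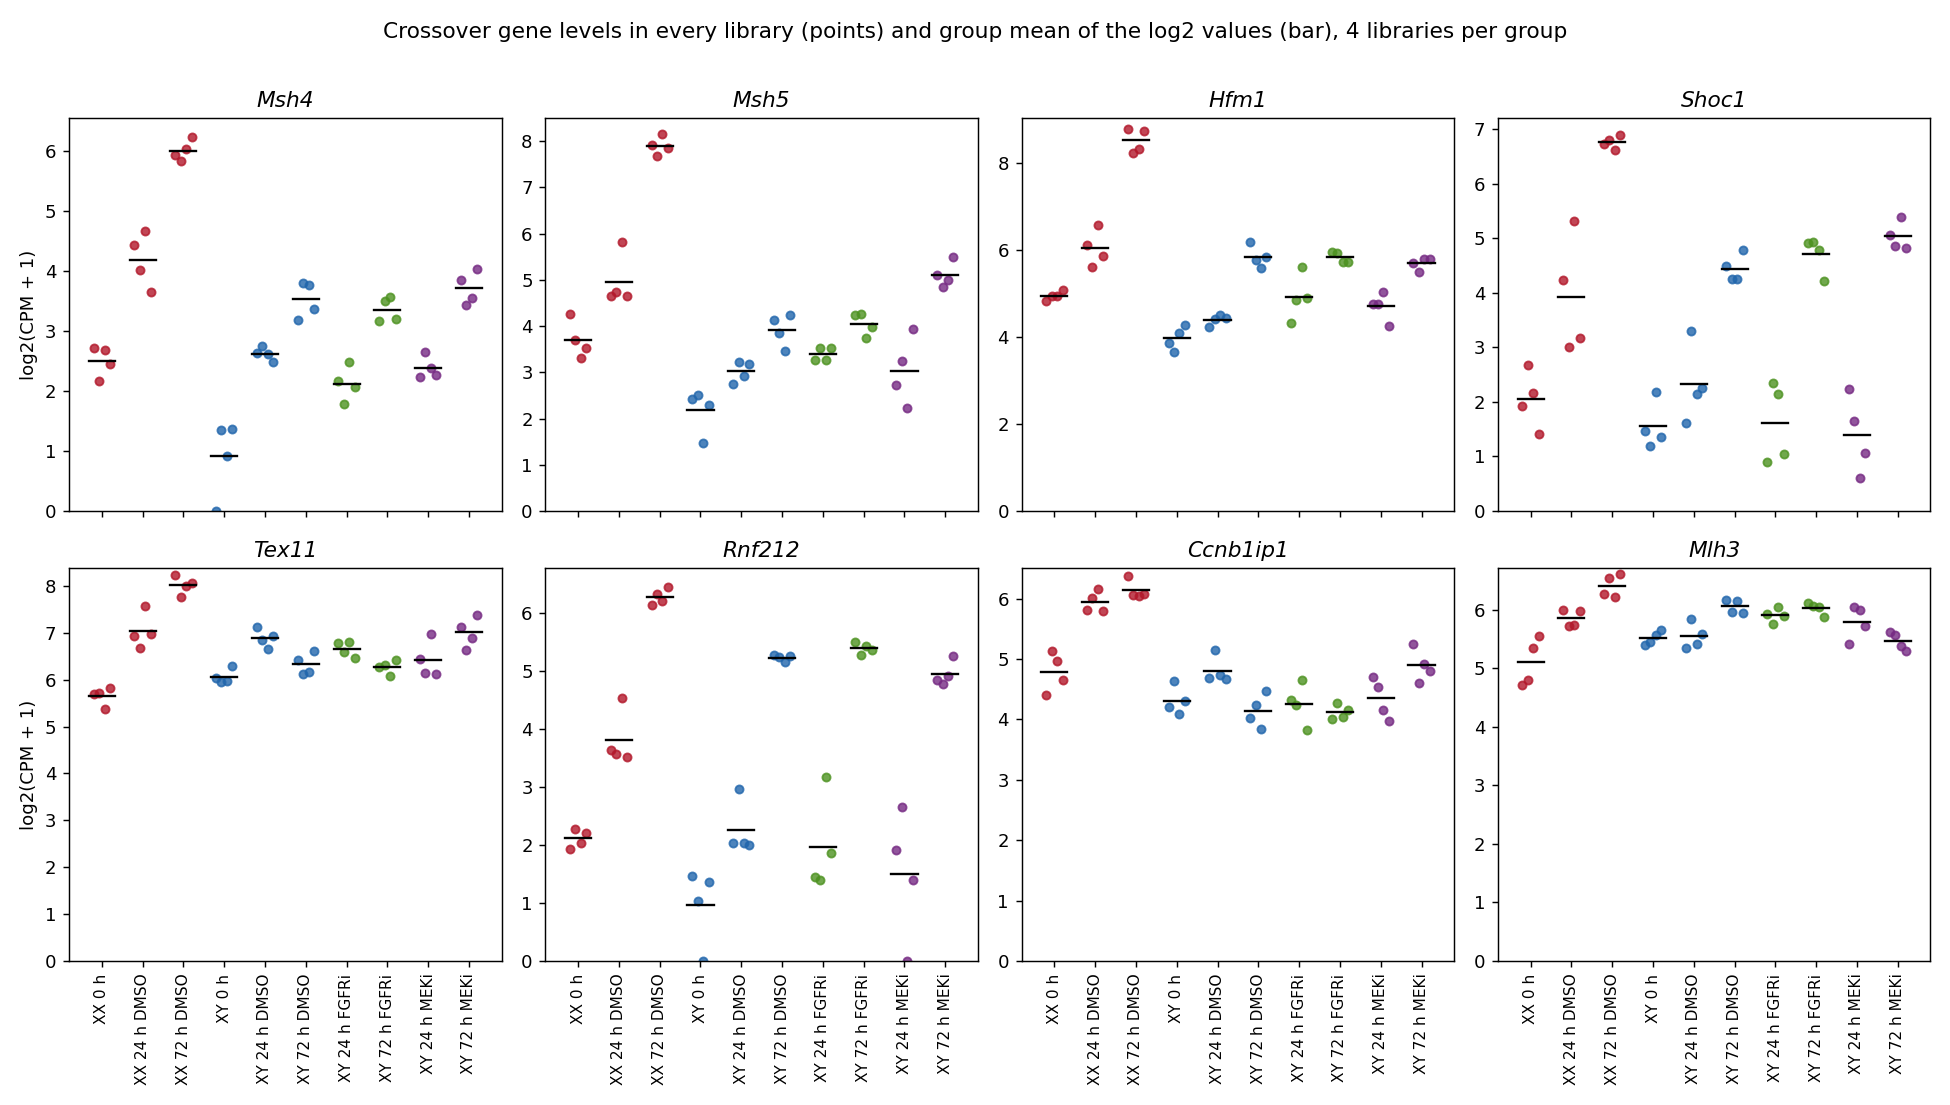
Level of each gene as log2(CPM + 1) in every library (points, 4 per group) and the mean of the log2 values (bar) in XX (red), XY 0 h and DMSO (blue), XY FGFRi (green) and XY MEKi (purple) germ cells. The 4 XX 72 h DMSO libraries lie above every XY library for all 8 genes, and for Ccnb1ip1 they overlap with XX 24 h DMSO.

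The increase over 72 h was larger in XX than in XY for 4 of the 8 genes, by a test of the difference of both changes (12.9% of all genes passed in this direction). This interaction passed for Msh5 (2.58 ± 0.43 on the log2 scale, SE, FDR = 0.000129), Tex11 (2.13 ± 0.23, FDR = 1.14e-07), Ccnb1ip1 (1.63 ± 0.26, FDR = 0.000802) and Hfm1 (1.59 ± 0.27, FDR = 0.00169). A constant difference between the pools cancels in it. The value of Msh5 became 3.54 with the carry-over estimate taken out. Shoc1 had an interaction of 1.69 ± 0.62 (FDR = 0.115), and with the carry-over estimate taken out it passed as well, at 3.84 (FDR = 0.00187). For Msh4 the interaction was 0.46 with a 95% interval of -0.64 to 1.56, for Rnf212 -0.48 (-1.65 to 0.69) and for Mlh3 0.67 (0.27 to 1.08), none of which passed.

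**Figure D3:**
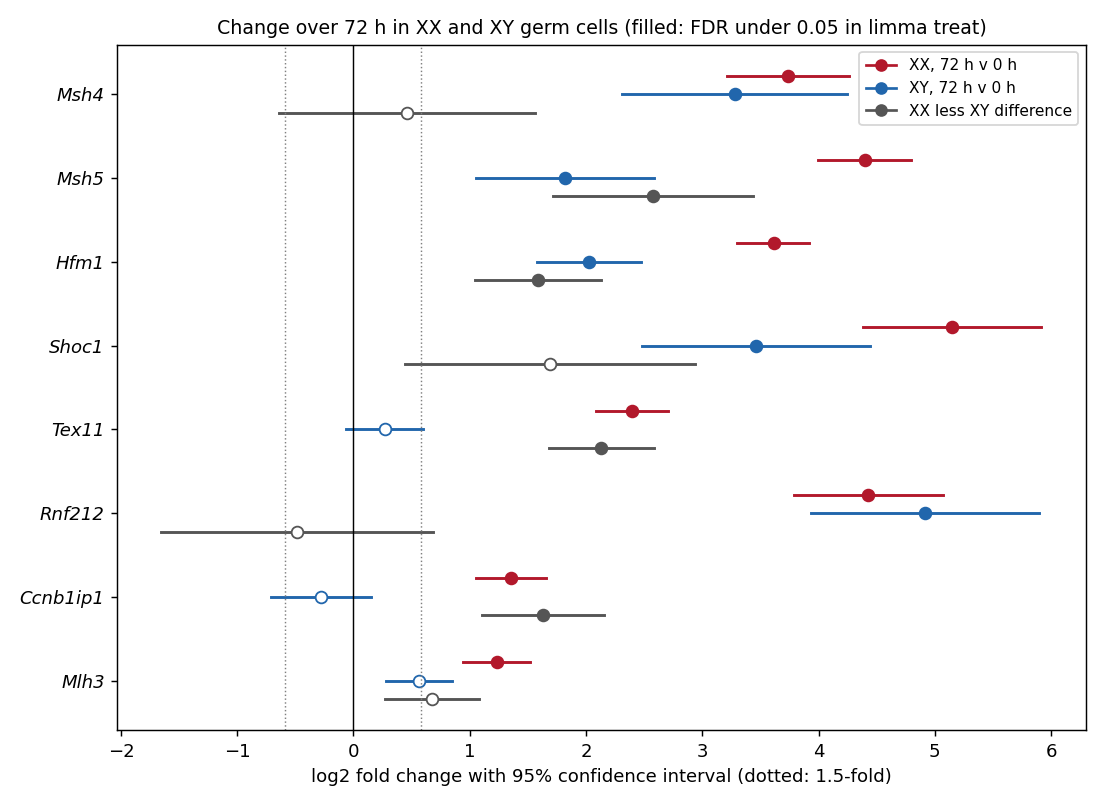
Log2 fold change of 72 h over 0 h in XX (red) and XY (blue) germ cells and the XX less XY difference of the changes (grey), with 95% confidence intervals; filled points passed the test. Rnf212 and Msh4 rose in both sexes with a difference whose interval holds 0, while Tex11 and Ccnb1ip1 passed in XX and not in XY and their difference passed.

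Among the clamp subunits, Msh5 had the widest gap between the sexes. In XX 72 h DMSO it read 241, 203, 286 and 228 CPM, and in XY 72 h DMSO 16.6, 13.4, 9.99 and 17.9 CPM. Every XX library was thus more than 10 times above every XY library. The XY less XX log2 fold change was -4.01 ± 0.21 (SE, FDR = 2.13e-20), or 16.1-fold lower in XY. From 0 h, Msh5 rose 21.1-fold in XX (log2 4.40 ± 0.20) and 3.53-fold in XY (log2 1.82 ± 0.38). With the carry-over estimate taken out the XX change was 5.60 on the log2 scale. Its partner Msh4 read 60.0, 55.8, 64.2 and 74.4 CPM in XX 72 h DMSO and 8.06, 13.0, 12.7 and 9.29 CPM in XY 72 h DMSO, which were 5.97-fold apart (log2 -2.58 ± 0.22, FDR = 1.91e-11). Msh4 rose 13.4-fold in XX and 9.70-fold in XY, the second from a mean of 1.00 CPM (11 counts over 4 libraries). With the carry-over estimate taken out, the log2 changes of Msh4 were 4.46 in XX and 3.74 in XY.

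Hfm1, the helicase, reached 436, 299, 319 and 425 CPM in XX 72 h DMSO and 71.2, 53.5, 47.3 and 56.4 CPM in XY 72 h DMSO. The groups lay 6.5-fold apart (log2 -2.70 ± 0.14, FDR = 8.35e-19). It rose 12.2-fold in XX and 4.06-fold in XY over 72 h, and both changes passed. The XX change was 4.22 on the log2 scale with the carry-over estimate taken out. At 24 h the XX libraries had 67.8, 47.7, 93.7 and 57.1 CPM, all above the 17.6, 20.3, 21.7 and 20.6 CPM of XY 24 h DMSO.

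Shoc1 started near the limit of these counts and reached 105, 111, 97 and 118 CPM in XX 72 h DMSO, against 21.5, 18.0, 18.0 and 26.5 CPM in XY 72 h DMSO. Its fold change over 72 h was 35.6 in XX (log2 5.15 ± 0.38) and 11 in XY (log2 3.46 ± 0.49). With the carry-over estimate taken out the changes became 7.92 in XX and 4.08 in XY on the log2 scale, so that their size depends on the 33 and 17 counts at 0 h. At 72 h the XY level was 5.26-fold lower than the XX level (FDR = 8.69e-11), a comparison within pool 2.

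Tex11, which is X-linked, was counted in every library at 0 h in both sexes. It rose in XX from 51.1, 51.8, 40.7 and 55.5 CPM at 0 h to 122, 102, 189 and 125 CPM at 24 h and 301, 217, 256 and 266 CPM at 72 h. In XY the values were 64.5, 61.2, 61.5 and 76.8 CPM at 0 h, 138, 114, 100.4 and 122 CPM at 24 h and 84.1, 69.0, 70.6 and 96.9 CPM at 72 h. At 24 h the sexes overlapped and the log2 difference was -0.06 with a 95% interval of -0.36 to 0.24, and at 72 h they did not overlap (log2 -1.72 ± 0.15, FDR = 3.53e-09). The lower XY level at 72 h than at 24 h, log2 -0.60 ± 0.16, did not pass (FDR = 0.877).

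The 2 RING protein genes had unlike courses. Rnf212 read 2.80, 3.86, 3.10 and 3.62 CPM in XX 0 h and 69.6, 79.5, 72.9 and 86.7 CPM in XX 72 h DMSO, and it rose from 1.76, 1.04, 0 and 1.57 CPM in XY 0 h to 37.6, 36.8, 34.6 and 37.2 CPM in XY 72 h DMSO. No library of one time overlapped with the other in either sex. Its fold change over 72 h was 21.6 in XX (log2 4.43 ± 0.32) and 30.1 in XY (log2 4.91 ± 0.49, FDR = 6.88e-11), the second from 12 counts at 0 h that were close to the carry-over estimate. With the estimate taken out the log2 changes were 5.88 in XX and 6.83 in XY, and the sizes rest on the few counts then left at 0 h. Between 24 h and 72 h the XY level rose 10.4-fold (FDR = 1.78e-09), and by 4.24 on the log2 scale with the estimate taken out. At 72 h the XY level was 2.11-fold below the XX level (FDR = 0.00460), the smallest of the 7 called sex differences.

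Ccnb1ip1, which acts against Rnf212 in crossover choice, was 2.55-fold higher at 72 h than at 0 h in XX (log2 1.35 ± 0.15, FDR = 1.44e-05), and most of this came by 24 h. The XX libraries had 20.3, 34.0, 30.3 and 24.2 CPM at 0 h, 55.4, 63.3, 70.4 and 54.7 CPM at 24 h and 82.4, 66.1, 64.9 and 66.6 CPM at 72 h. In XY it stood at 17.6, 23.9, 16.0 and 18.8 CPM at 0 h, at 24.9, 34.4, 25.8 and 24.4 CPM at 24 h and at 15.2, 18.0, 13.3 and 21.2 CPM at 72 h in DMSO. The 24 h libraries lay above those of 0 h and 72 h, though neither difference passed, and the ranges of 0 h and 72 h overlapped. At 72 h the XY level was 4.22-fold lower (FDR = 1.60e-09). Exons of Ccnb1ip1 overlap those of Rpph1, a non-coding RNA, by 268 bases on the same strand, so that reads there cannot be assigned with certainty.

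Mlh3 changed least of the 8 genes over 72 h in XX, though its log2 change of 1.23 ± 0.14 (SE) lay close to the 1.35 ± 0.15 of Ccnb1ip1. The XX libraries of Mlh3 had 25.2, 26.7, 39.6 and 46.0 CPM at 0 h and 76.0, 91.9, 73.6 and 97 CPM at 72 h, a 2.35-fold change (FDR = 9.53e-05). In XY it read 41.2, 42.8, 46.3 and 49.4 CPM at 0 h and 70.7, 61.4, 69.9 and 60.4 CPM at 72 h. The XY ranges did not overlap, yet the 1.48-fold change was not past the threshold of 1.5-fold (FDR = 0.908). The XY less XX log2 difference at 72 h was -0.38 with a 95% interval of -0.65 to -0.11.

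Ranked by mean level over the 10 groups, few neighbouring groups were separated. Of the 9 neighbouring pairs in each ranking, the ranges of the 4 libraries overlapped in 8 pairs for Hfm1, Shoc1, Ccnb1ip1 and Mlh3, in 7 for Tex11, in 6 for Msh4 and Msh5 and in 5 for Rnf212. XX 72 h DMSO stood clear of the next group for 7 genes, and for Ccnb1ip1 it overlapped with XX 24 h DMSO, the 2 of them lying clear of all XY groups. The lowest mean was XY 0 h for Msh4, Msh5, Hfm1 and Rnf212, XX 0 h for Tex11 and Mlh3, XY 24 h MEKi for Shoc1 and XY 72 h FGFRi for Ccnb1ip1. Once the carry-over estimate was taken out, the means of Shoc1 in XX 0 h (0.580 CPM) and XY 0 h (1.15 CPM) lay below the 1.87 CPM of XY 24 h MEKi.

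MEK inhibition for 72 h left none of the 8 crossover genes past the test against XY 72 h DMSO in limma treat, in which 9.12% of all genes passed in either direction (4.01% higher). The closest was Msh5, which read 33.3, 27.8, 30.9 and 44.3 CPM in MEKi and 16.6, 13.4, 9.99 and 17.9 CPM in DMSO. All MEKi libraries were above all DMSO libraries, and the 2.23-fold difference (log2 1.16 ± 0.22, SE) had FDR = 0.0604. By unadjusted p under 0.05, Msh5 alone of the 8 differed, against 16.5% of all genes. It was called by edgeR (FDR = 0.0139), as were 12.2% of all genes, and not by DESeq2 (FDR = 0.216), and in limma the call appeared without MEKi replicate 3 (FDR = 0.0219) or MEKi replicate 4 (FDR = 0.0440).

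Tex11, Shoc1, Ccnb1ip1 and Mlh3 also had MEKi and DMSO libraries that did not overlap at 72 h, which with Msh5 made 5 of 8, against 38.3% of all genes. Tex11 read 140, 98.7, 117 and 167 CPM in MEKi against 69.0 to 96.9 CPM in DMSO (log2 0.65 ± 0.15). Shoc1 had 32.3, 28.1, 40.8 and 27.4 CPM against 18.0 to 26.5 CPM (log2 0.69 ± 0.21), and Ccnb1ip1 had 37.2, 23.5, 29.1 and 27.0 CPM against 13.3 to 21.2 CPM (log2 0.74 ± 0.19, FDR = 0.810). Mlh3 went the other way, with 48.1, 46.6, 40.8 and 38.0 CPM in MEKi against 60.4 to 70.7 CPM (log2 -0.63 ± 0.13). For the remaining 3 members the groups overlapped, with log2 differences of 0.10 (95% interval -0.37 to 0.57) for Msh4, -0.17 (-0.48 to 0.13) for Hfm1 and -0.32 (-0.64 to -0.004) for Rnf212. The members' median was 0.375 against 0.006 over all genes.

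The MEKi germ cells at 72 h were below XX 72 h DMSO for 8 of 8 genes (against 12.8% of all genes), a comparison within pool 2. The groups did not overlap for any of the 8, and 23.9% of all genes were apart in this direction. The difference was 7.33-fold for Hfm1, 7.21-fold for Msh5, 5.57-fold for Msh4 and 3.25-fold for Shoc1, and between 2.01-fold (Mlh3) and 2.63-fold (Rnf212) for the rest. Compared with XY 0 h, 5 of 8 were higher in MEKi at 72 h (Msh4, Msh5, Hfm1, Shoc1 and Rnf212, against 15.1% of all genes). The comparison of XY 72 h DMSO with XY 0 h uses the same XY 0 h libraries. Tex11 was 1.89-fold above XY 0 h (FDR = 0.0604), and it passed with the carry-over estimate taken out (FDR = 0.0375).

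**Figure D4:**
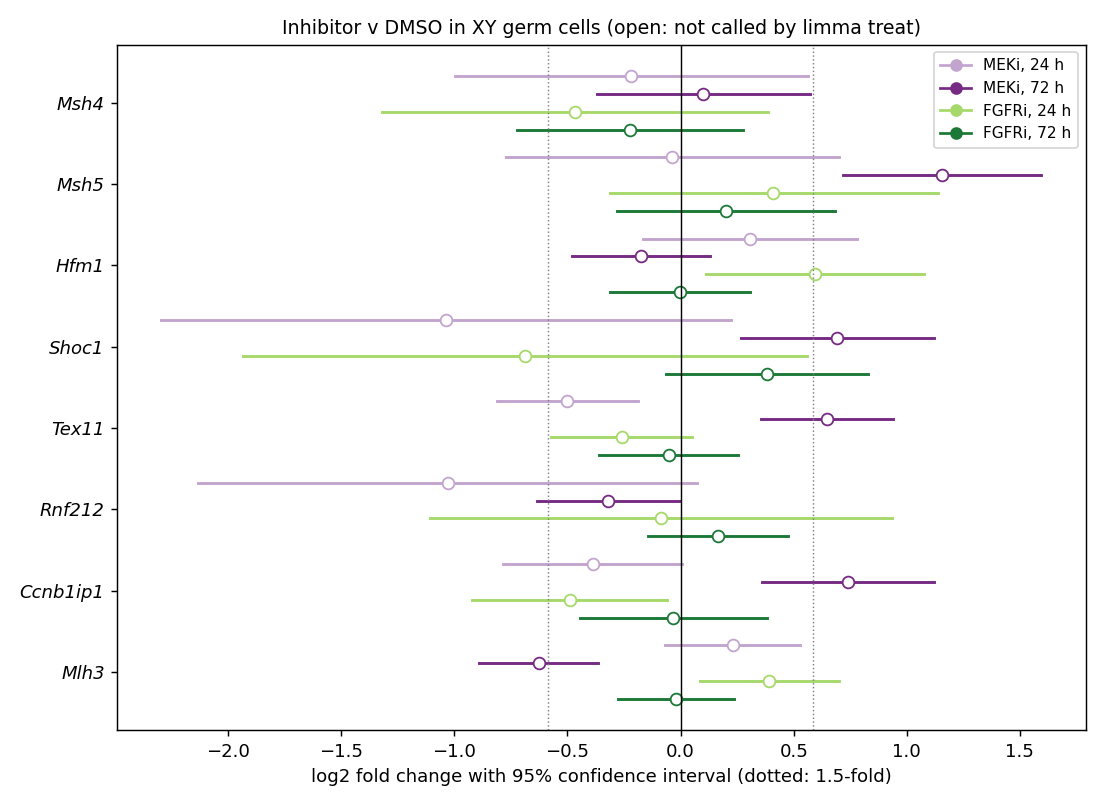
Log2 fold change of inhibitor over DMSO in XY germ cells at 24 h and 72 h with 95% confidence intervals, for MEKi (purple) and FGFRi (green); open points did not pass the test. Every point is open, and Msh5 with MEKi at 72 h lies farthest from 0 among the 72 h values.

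After 24 h, none of the 8 passed with MEKi in limma treat (0.164% of all genes passed), with FGFRi (0.262%) or, after 72 h, with FGFRi (0.00656%). None of the 8 had an unadjusted p under 0.05 in these 3 comparisons, against 2.31%, 2.58% and 0.584% of all genes, and edgeR and DESeq2 called 0 as well. With FGFRi at 72 h the log2 differences lay between -0.22 (Msh4) and 0.38 (Shoc1), and for Hfm1 the value was -0.003 with a 95% interval of -0.31 to 0.31. With FGFRi at 24 h the groups did not overlap for 3 of 8 genes (Msh5 higher, with log2 0.41 ± 0.36, and Msh4 and Ccnb1ip1 lower, with -0.47 ± 0.43 and -0.49 ± 0.22), against 10.7% of all genes. For Msh4 the highest FGFRi library had 4.591 CPM and the lowest DMSO library 4.599 CPM. With the carry-over estimate taken out, the DMSO mean of Msh4 was 4.47 CPM, so that its groups overlapped. At 72 h, Rnf212 read 44.3, 37.9, 42.1 and 40.1 CPM in FGFRi and 37.6, 36.8, 34.6 and 37.2 CPM in DMSO, the only member whose groups did not overlap (log2 0.17 ± 0.15), against 6.71% of all genes. With MEKi at 24 h the deposited counts gave -1.04 for Shoc1 and -1.03 for Rnf212, from 15 and 19 counts in MEKi against 45 and 39 in DMSO. With FGFRi at 24 h they gave -0.69 for Shoc1 and -0.09 for Rnf212. The DMSO libraries at 24 h have an index partner and the MEKi and FGFRi libraries have none. With the carry-over estimate taken out, the values became 0.24 and -0.18 for MEKi and 0.58 and 0.74 for FGFRi. The blood cell markers summed to 28.9 to 113 CPM in XY 24 h DMSO, below the MEKi libraries of 24 h.

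The change in the MEKi effect from 24 h to 72 h passed for none of the 8 in limma treat (1.89% of all genes passed). By unadjusted p under 0.05, Shoc1, Tex11 and Ccnb1ip1 differed (against 9.77% of all genes), and edgeR and DESeq2 called 0. The values were 1.73 ± 0.66 for Shoc1, 1.15 ± 0.21 for Tex11 and 1.13 ± 0.27 for Ccnb1ip1 on the log2 scale (SE), each in the direction of a higher effect at 72 h. With the carry-over estimate taken out they were 0.45, 1.13 and 1.10, so that the value of Shoc1 rests on the deposited 24 h counts.

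Genes of the same processes, from lists set by their textbook roles, were read beside the members. Of 9 genes of meiotic entry and prophase, 3 were higher with MEKi at 72 h (against 4.01% of all genes), namely Stra8, a factor of meiotic entry, Dmc1, a strand exchange recombinase, and Rec8, a meiotic cohesin subunit. Stra8 stood at 949 ± 186 CPM in MEKi, 102 ± 28.5 CPM in XY DMSO and 696 ± 143 CPM in XX DMSO (SD, n = 4), and its log2 fold change with MEKi was 3.18 ± 0.16 (SE, FDR = 2.34e-18). Dmc1 stood at 28.3 ± 9.06, 7.06 ± 1.64 and 210 ± 28.8 CPM in the same order. The MEKi libraries overlapped with the XX libraries for Stra8, with 770 to 1163 CPM against 553 to 851 CPM, whereas for Dmc1 and for each of the 8 crossover genes they lay below them. For Rec8 the MEKi libraries lay above the XX libraries of 72 h, with 122.6 to 160.8 CPM against 40.1 to 98.0 CPM. They lay below the XX 24 h DMSO libraries, which had 299.7 to 379.1 CPM of Rec8. Before culture, 4 of the 9 were lower in XY than in XX (Stra8, Rec8, Sycp1 and Sycp3, against 1.65% of all genes), where no crossover gene passed. With the carry-over estimate taken out, 3 of the 9 were lower, and Sycp3 no longer passed (FDR = 0.244). Over 72 h in XX 8 of the 9 were higher (against 18.8% of all genes), with a list median of 3.38 beside 3.68 for the crossover genes.

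Among 5 matched genes of 6 other class I crossover genes, 2 were higher with MEKi at 72 h (against 4.01% of all genes), namely Exo1 (log2 1.55 ± 0.17, FDR = 2.45e-05), an exonuclease of meiotic recombination, and Cdk2 (log2 0.98 ± 0.13, FDR = 0.0291), a kinase found at crossover sites. Both also act in mitotic cells. Exo1 stood at 148 ± 11.1 CPM in XY 0 h, 27.3 ± 3.39 CPM in XY 72 h DMSO and 81.0 ± 4.07 CPM in XY 72 h MEKi. At 72 h, 3 of the 5 were lower in XY than in XX (against 18.1% of all genes), namely Cntd1 (log2 -2.50 ± 0.29), a cyclin-like protein of crossover sites, Exo1 (-1.35 ± 0.19) and Rnf212b (-1.14 ± 0.14), a relative of Rnf212.

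Other genes that process recombination intermediates were called between the sexes at 72 h about as often as all genes (41% in either direction). Of 13 tested genes among 14 resolvase, helicase and dissolution genes, none passed with MEKi at 72 h (against 9.12% of all genes in either direction). In DMSO at 72 h, 4 were lower and 2 higher in XY than in XX (against 18.1% lower and 22.8% higher over all genes). The lower ones were Rmi2, Rmi1, Brip1 and Gen1, and Mus81 and Slx1b, which encode parts of structure-specific nucleases, were higher in XY.

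**Figure D5:**
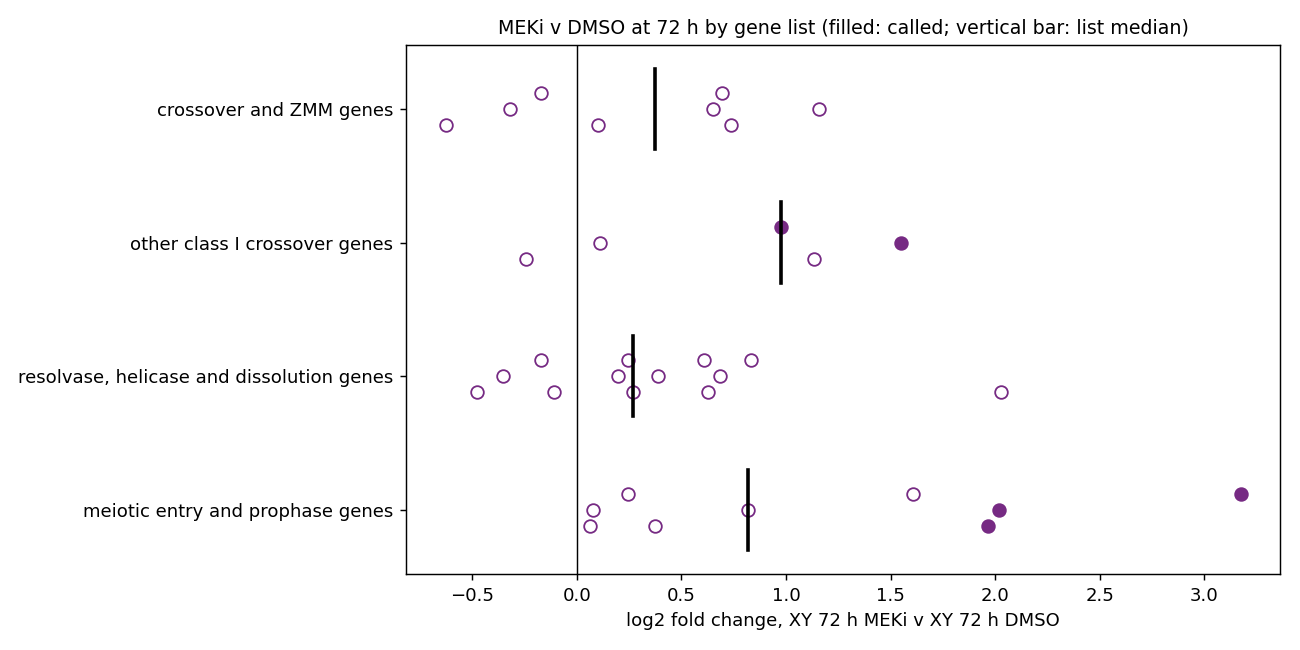
Log2 fold change of MEKi over DMSO in XY germ cells at 72 h for each tested gene of the 4 lists (filled points passed the test; vertical bars are list medians). No crossover gene passed, whereas Exo1 and Cdk2 of the other class I genes and Stra8, Dmc1 and Rec8 of the meiotic list did.

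The profiles of the 8 genes over the groups were not equally alike. The Pearson correlation of each gene's 10 group means (log2 CPM) with the mean of all 8 standardised profiles was 0.976 for Msh4, 0.974 for Hfm1, 0.965 for Msh5, 0.921 for Shoc1, 0.864 for Rnf212, 0.844 for Tex11, 0.733 for Ccnb1ip1 and 0.715 for Mlh3. These are descriptions over 10 groups that share pools and depth, and each gene is itself part of the mean. The genes outside the list with the closest profiles were Zswim9 (0.990), Stk25 (0.986), Zcwpw1 (0.985), Ttc3 (0.984) and Supt3 (0.984). ZCWPW1 is a histone mark reader used in meiotic recombination, and Zcwpw1 ranged from 205 to 1772 CPM between group means.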

How the data were processed

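RNA was counted in 40 libraries of FACS-sorted germ cells. The counts deposited by the authors are whole numbers, a column for each library, neither normalised nor filtered. Per their methods, priming at the poly(A) tail added the sample index and a UMI (unique molecular identifier). scPipe was used to demultiplex reads, to assign them to exons by strand and to collapse UMIs, and Rsubread to align them to GRCm39. Counts from priming at the poly(A) tail were not divided by length, so levels are compared only within a gene. The authors also deposited the sample index of each library, which gave the index pairs. The labels put 20 libraries in each of 2 samples, and library names gave sex, time, treatment and replicate. All columns were used. Genes were matched to GENCODE M39 (40391 of 42422; the others held 1.05% of the counts).

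Genes were kept by filterByExpr (minimum count 10, minimum total 15; 15252 genes). Following the study's methods, TMM scaling, voomWithQualityWeights and treat at 1.5-fold were run in limma 3.58.1 (edgeR 4.0.16, R 4.3.3) with 1 mean per group over all 40 libraries. Benjamini-Hochberg FDR under 0.05 was the threshold, and intervals are at 95%. The study names limma and edgeR. The steps were tested on simulated data. Libraries of a group came from separate pools of gonads; nothing further was said of litters, so p-values measure the spread between these libraries. Replicate numbers did not pair the libraries. Named genes were all 8 members, and of 3 lists those called with MEKi at 72 h or between the sexes at 0 h, or with the largest sex difference at 72 h; Gen1 and Mus81 were named after their values were seen. Some genes of these processes are not reported here. The members and lists were chosen with earlier results of these data known. Alternatives were RLE size factors, no filter, edgeR, DESeq2 1.42.0, limma without the fold threshold in its test, voom without sample weights, only the groups compared, a replicate block, leaving out each library and taking out index carry-over.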

Additional observations from a re-analysis of the deposited data

Results flagged for a closer look

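Some values stood apart. In 80 sets of 4 libraries (8 genes in 10 groups), 6 values, from 4 libraries, lay farther from the other 3 than Dixon's 95% critical value allows, and chance alone flags about 1 set in 20. In XX 24 h DMSO replicate 6, Msh5 read 55.5 CPM against 24.0 to 25.5 CPM in the others, and Rnf212 read 22.3 CPM against 10.4 to 11.5 CPM. In XY 24 h DMSO replicate 3, Rnf212 read 6.77 CPM against 2.98 to 3.11 CPM, and Ccnb1ip1 read 34.4 CPM against 24.4 to 25.8 CPM. Rnf212 was 8.04 CPM in XY 24 h FGFRi replicate 4 against 1.63 to 2.64 CPM, from 14 counts. Ccnb1ip1 was 82.4 CPM in XX 72 h DMSO replicate 11 against 64.9 to 66.6 CPM.

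The change from 0 h to 72 h differed between XX and XY germ cells by the interaction test for Msh5 (2.58 on the log2 scale), Tex11 (2.13), Ccnb1ip1 (1.63) and Hfm1 (1.59), each with the larger change in XX.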

How the results depend on the processing

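The number of crossover genes called was recomputed for 17 comparisons under 9 other settings and without each library of the groups compared, and no gene called in the report, nor any gene with MEKi at 72 h, passed in the opposite direction (1083 of 1154 gene values stayed on their side of the threshold). Index carry-over taken out, RLE size factors and voom without sample weights moved no count by over 1.5 times. With no filter the XX count of 24 h over 0 h was 2 instead of 6, and that of XY against XX at 0 h was 1 instead of 0. Over all genes these comparisons had 429 calls instead of 493 and 386 instead of 457. With edgeR, 2 genes were called between the sexes at 0 h and 1 with MEKi at 72 h, both against 0. DESeq2 and the fit of only the groups compared each gave 0 instead of 1 for XY 24 h over 0 h, with 364 and 400 calls over all genes instead of 449. With limma's test of no change and an observed 1.5-fold, the counts were 3 for XY 24 h over 0 h (15.3% of all genes), 7 instead of 3 for XY 72 h over 24 h (47.8%), 4 for XY against XX at 0 h (14.7%), 5 with MEKi at 72 h (31.1%; Msh5, Shoc1, Tex11 and Ccnb1ip1 higher, Mlh3 lower) and 4 for the change in the MEKi effect (18.9%). The shares of all genes called also rose in each of these comparisons.

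Replicate numbers shared between groups did not pair the libraries: correlations of deviations between libraries of the same number ran from -0.394 to 0.355 over the comparisons. Replicate numbers 7, 8 and 11 occur only in XX 72 h DMSO, and number 9 only in XX 24 h DMSO. A replicate block fits each of these libraries by a term of its own, so its XX 72 h DMSO mean rests on replicate 4. The block counts that involve XX 72 h DMSO therefore cannot show how far those results depend on the replicate. With a replicate block the counts were 1 for XX 24 h over 0 h (1.53% of all genes), 7 for XX 72 h over 0 h (22.2%; Ccnb1ip1 lost, FDR = 0.0899), 5 for XY against XX at 72 h (25.5%; Shoc1, FDR = 0.0712, and Rnf212, FDR = 0.382, lost), 3 for XX 72 h over 24 h (7.39%), 0 for XY 24 h over 0 h (2.75%), 3 for XY against XX at 24 h (7.85%), 3 for MEKi against XX at 72 h (11.1%), 2 for the interaction of time and sex (17%) and 1 (Tex11) for the change in the MEKi effect (1.57%).

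Without single libraries, the counts ranged from 2 to 6 for XX 24 h over 0 h, 5 to 6 for XX 72 h over 24 h, 0 to 1 for XY 24 h over 0 h, 0 to 1 for XY against XX at 0 h, 3 to 6 at 24 h, 0 to 1 with MEKi at 72 h, 5 to 6 for MEKi at 72 h over XY 0 h and 0 to 1 for the change in the MEKi effect. In the other comparisons the count of crossover genes did not move. Calls over all genes moved as well, from 493 to between 318 and 470 for XX 24 h over 0 h. They went from 1524 to between 1185 and 1500 for XY against XX at 24 h, and from 1391 to between 1141 and 1363 with MEKi at 72 h. Low counts limit Msh4, Shoc1 and Rnf212 in pool 1, where XY 0 h held 11, 17 and 12 counts.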
